A study of Rattus norvegicus with 39 samples.

Results

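The cerebral cortex of rats fed ad libitum on a diet with α-lipoic acid (AL + LA) was compared between 12 and 28 months of age, in 6 RNA-seq libraries of the 39 in the series. The libraries were taken by their labels alone: 3 pools of 12 m AL + LA (pools 37, 38 and 39) and 3 pools of 28 m AL + LA (pools 34, 35 and 36), each pool holding RNA of 2 male BN rats (an inbred strain). Both groups ate the same chow with 1.5 g of α-lipoic acid per kg and had been assigned to it at 2 months of age, so that age was the labelled difference between them. Ageing in AL and in life-long caloric restriction (CR), each again with 3 pools at 12 and 3 at 28 months and neither with α-lipoic acid, was used only to ask where ageing on the AL + LA diet differed. Since animals were pooled, no value belongs to a single rat, and both diet comparisons share the same 6 AL + LA pools.

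α-Lipoic acid is a sulphur-containing fatty acid that serves as the covalently bound cofactor of the mitochondrial 2-oxoacid dehydrogenases and of the glycine cleavage system, and that is given as a dietary antioxidant. In the ageing rodent cortex, astrocytes are known to accumulate glial fibrillary acidic protein, and microglia, the resident macrophages of the brain, to display more receptors and antigen-presenting molecules at their surface. The inducible heat shock proteins of the Hsp70 family refold damaged proteins, and their genes are switched on by heat shock factors through repeated GAA and TTC units in their promoters.

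Promoters are shown for the genes these results turn on that matched a RefSeq promoter (GRCr8, 250 bases before to 50 after the transcription start), written 5′ to 3′ along the gene. Gfap (chr10:88361612-88361911, minus strand) and Mpeg1 (chr1:218876644-218876943, plus strand) were the genes called higher at 28 months, and the capitals mark the bases from the start onwards. Neither of those windows held the heat shock element searched for, which was TTC, any 2 bases, GAA, any 2 bases and TTC, on either strand.
Gfap: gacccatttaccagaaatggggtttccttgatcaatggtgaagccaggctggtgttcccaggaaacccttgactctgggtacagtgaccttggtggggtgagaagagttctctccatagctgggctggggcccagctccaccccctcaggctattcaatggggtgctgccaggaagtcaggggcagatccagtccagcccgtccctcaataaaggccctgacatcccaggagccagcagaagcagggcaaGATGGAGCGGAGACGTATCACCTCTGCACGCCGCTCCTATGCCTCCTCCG
Mpeg1: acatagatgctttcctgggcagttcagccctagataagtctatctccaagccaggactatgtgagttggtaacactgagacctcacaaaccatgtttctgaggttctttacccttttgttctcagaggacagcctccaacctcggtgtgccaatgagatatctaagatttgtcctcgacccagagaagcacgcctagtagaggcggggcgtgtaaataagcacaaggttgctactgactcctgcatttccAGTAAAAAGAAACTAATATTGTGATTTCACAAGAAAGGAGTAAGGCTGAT
Hsph1 (chr12:10427118-10427417, plus strand) and Hspe1 (chr9:64084077-64084376, plus strand) stand for the heat shock genes, and here the capitals mark the element, which overlaps itself in Hspe1. The element was present in 0.798% of the 33469 RefSeq promoters and in 2 of the 4 heat shock genes that were tested and matched, and Hspa1b was not matched.
Hsph1: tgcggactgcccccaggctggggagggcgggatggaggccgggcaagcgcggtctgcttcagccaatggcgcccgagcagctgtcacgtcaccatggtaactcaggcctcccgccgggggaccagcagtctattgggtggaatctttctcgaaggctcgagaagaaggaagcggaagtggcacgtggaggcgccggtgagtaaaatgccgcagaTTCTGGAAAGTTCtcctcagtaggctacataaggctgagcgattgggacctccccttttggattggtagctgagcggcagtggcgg
Hspe1: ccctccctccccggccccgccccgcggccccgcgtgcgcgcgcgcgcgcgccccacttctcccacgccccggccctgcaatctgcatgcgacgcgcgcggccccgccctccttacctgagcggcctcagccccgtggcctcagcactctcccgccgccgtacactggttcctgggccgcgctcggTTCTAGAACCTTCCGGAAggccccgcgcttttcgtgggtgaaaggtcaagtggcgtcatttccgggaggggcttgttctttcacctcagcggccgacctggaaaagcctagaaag

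Very few genes passed the threshold between 12 and 28 months in AL + LA. At a Benjamini-Hochberg adjusted p under 0.05 by edgeR's quasi-likelihood test, 3 of 17230 genes were differentially expressed (DE), or 0.0174% of those tested. Gfap and Mpeg1 rose and Hspa1b fell. An unadjusted p under 0.05 was reached by 760 genes (4.41%), of which 375 (2.18%) were higher at 28 months and 385 (2.23%) lower. In 872 genes (5.06%) every 28-month pool lay above every 12-month pool, and in 801 (4.65%) every 28-month pool lay below. The 1671 genes with a name, from which every list below is drawn and which the study had listed as changed in these samples, held 69 at an unadjusted p under 0.05 that were higher and 70 that were lower, larger shares than over all genes. Of them, 93 lay higher without overlap and 86 lower. The shares over all genes set beside the lists below are thus a low reference for lists drawn from the named genes. The median log2 fold change (log2 FC), 28 over 12 months, was -0.0028 over all genes tested, with 8489 positive and 8720 negative. Of the 1671 named genes, 733 were positive. Levels below are in CPM, read counts scaled by library size and TMM factors, and are compared between samples and not between genes. Libraries held 3257510 to 5214247 reads on genes at 12 months and 3898282 to 4150520 at 28 months, 38.5% to 41.3% of reads were not aligned, and the residual ribosomal transcript Rn28s took 0.927% to 3.30% of reads on genes, the lowest share being that of pool 34. Which single genes were called depended on the pools: 8 genes without pool 38, 5 without pool 37, 3 without pool 34 and 1 (Gfap) without pool 35, 36 or 39.

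**Figure D1:**
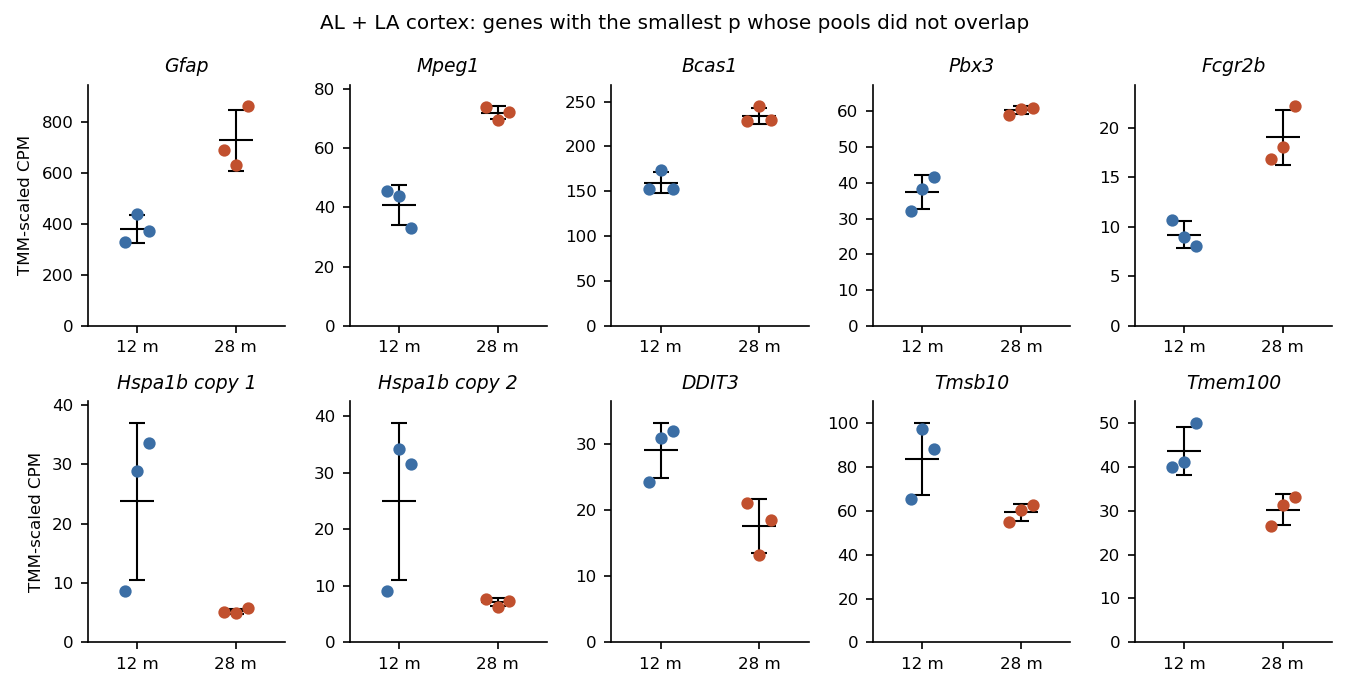
Expression of 10 gene models in each AL + LA pool, in CPM (read counts scaled by library size and TMM factors, with y axes from 0), at 12 and 28 months; points are pools, and the bar and whiskers are the mean ± SD of 3 pools. The upper row holds the 5 named genes with the smallest p among those higher at 28 months without overlap and the lower row the 5 among those lower, and of these 10 only Gfap, Mpeg1 and Hspa1b copy 1 passed the adjusted threshold.

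Gfap, which encodes the intermediate filament of astrocytes, showed the smallest p of all genes. The 12 m pools 37, 38 and 39 were at 331, 439 and 372 CPM, and the 28 m pools 34, 35 and 36 at 693, 632 and 862 CPM. The lowest old pool was well above the highest younger one. The log2 FC of Gfap (ENSRNOG00000002919) was 0.93 (SE 0.124, edgeR adjusted p = 0.00285), with means of 381 ± 54.3 and 729 ± 119 CPM (SD, n = 3 pools each). It was DE in each fit that left out 1 pool, with a log2 FC from 0.797 to 1.06. In bulk tissue, more cells of a type and more RNA per cell cannot be told apart.

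The other astrocyte markers that could be named did not pass. Of 5 tested, 1 (Gfap) was higher at an unadjusted p under 0.05 (2.18% of all genes) and 3 were higher without overlap (5.06% of all genes), with a list median of 0.14. Aqp4, the water channel of astrocyte endfeet, was at 699, 615 and 677 CPM at 12 m and at 720, 778 and 750 CPM at 28 m (log2 FC 0.17, SE 0.101). Vim, another intermediate filament, had a log2 FC of 0.14 (SE 0.113), and the gap junction gene Gjb6 one of -0.09 (SE 0.13). The summed level of the 5 genes ranged from 1221 to 1234 CPM at 12 m and from 1594 to 1811 CPM at 28 m, a difference to which the Gfap means of 381 and 729 CPM belong.

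Mpeg1 encodes perforin-2, a pore-forming protein of macrophages and microglia. Its level was 45.5, 43.7 and 33 CPM in pools 37, 38 and 39 and 73.8, 69.6 and 72.2 CPM in pools 34, 35 and 36, so that the old pools lay close together and above every younger pool. The log2 FC of Mpeg1 (ENSRNOG00000021084) was 0.81 (SE 0.137, edgeR adjusted p = 0.0334). The call rested on each of 4 pools. Without pool 34, 35, 36 or 39 its adjusted p was 0.0924, 0.096, 0.184 and 0.192, and without pool 37 or 38 it was 0.0404 and 0.0389. With Rn28s as a covariate it was 0.0578, at a log2 FC of 0.788.

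Microglia markers lay higher in the old AL + LA cortex as a group of values, although none of the 8 tested passed the adjusted threshold. All 8 had a positive log2 FC (median 0.44), 5 reached an unadjusted p under 0.05 against 2.18% of all genes in that direction, and 7 had no overlap between the ages against 5.06% of all genes. Of the 1671 named genes, from which the list is drawn, 69 were higher at that p and 93 higher without overlap. Their summed level was 294 to 340 CPM at 12 m and 371 to 443 CPM at 28 m. Leaving out any 1 pool left 4 to 6 of the 8 at an unadjusted p under 0.05.

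Fcgr2b, an inhibitory Fc receptor, was at 10.7, 8.97 and 8.04 CPM in the 12 m pools and at 16.9, 18.1 and 22.2 CPM in the 28 m pools (log2 FC 1.04, SE 0.22, adjusted p = 0.213 by edgeR). Itgam, the CD11b integrin chain, was at 6.45, 7.8 and 6.6 CPM against 13.3, 10.4 and 16.4 CPM (log2 FC 0.92, SE 0.259, adjusted p = 0.809 by edgeR). Ptprc, the CD45 phosphatase of haematopoietic cells, had a log2 FC of 0.79 (SE 0.248), and Ctss, a lysosomal protease that is abundant in microglia, one of 0.30 (SE 0.112). Old pools stood above all younger pools for each of these genes.

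Complement genes lay mostly on the higher side as well. Of 5 tested, 4 had a positive log2 FC, 3 were higher at an unadjusted p under 0.05 (2.18% of all genes) and none lower, and 2 had no overlap (5.06% of all genes). Serping1, the inhibitor of the first complement proteases, was at 7.42, 4.49 and 9.76 CPM at 12 m and at 12.2, 11.5 and 21.4 CPM at 28 m (log2 FC 1.09, SE 0.30, adjusted p = 0.809 by edgeR), and pool 36 was the highest. C1qc, a chain of the C1q recognition molecule, had a log2 FC of 0.59 (SE 0.222). For C3, the central component, the pools overlapped (log2 FC 0.39, SE 0.222). The count depended on pool 36, without which 1 of the 5 genes reached an unadjusted p under 0.05, and on pool 37, without which 2 did.

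MHC class I genes, which display intracellular peptides, were represented by 2 named members, and both were higher at an unadjusted p under 0.05 (2.18% of all genes) with no overlap (5.06% of all genes). RT1-A1 was at 42.6, 65.7 and 42.8 CPM in the younger pools and at 86.0, 79.1 and 82.4 CPM in the old pools (log2 FC 0.69, SE 0.15, adjusted p = 0.256 by edgeR). RT1-A2 had a log2 FC of 0.65 (SE 0.224). Reads that matched several of these polymorphic, duplicated loci equally were not counted, so their single values are uncertain.

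Class II genes, which present peptides taken up by phagocytes, differed far more among the younger pools than between the ages. Cd74, the invariant chain, was at 12.3 CPM in pool 37, 89.1 CPM in pool 38 and 35.6 CPM in pool 39, and at 76.7, 102 and 87.1 CPM in the 28 m pools (log2 FC 0.88, SE 0.327, adjusted p = 1 by edgeR). RT1-Ba was at 9.04, 87.4 and 22.7 CPM in pools 37, 38 and 39 and at 67.0, 77.0 and 63.4 CPM in the old pools. RT1-Db1 was at 4.52, 60.6 and 9.76 CPM and at 35, 44.9 and 34.2 CPM. In each of the 5 genes pool 37 was the lowest of the 6 libraries and pool 38 lay at or above at least one old pool.

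**Figure D2:**
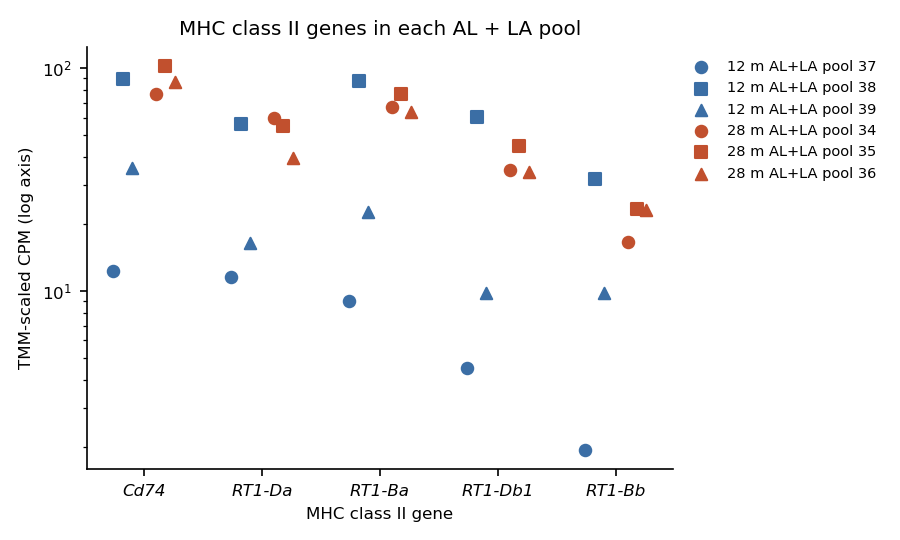
Levels of the 5 MHC class II genes in each AL + LA pool, in TMM-scaled CPM on a log axis, with 12 m pools in blue and 28 m pools in red. Pool 38 reached or exceeded the lowest 28 m pool for every gene, and pools 37 and 39 lay below all 28 m pools.

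Beside this spread, 2 of the 5 class II genes reached an unadjusted p under 0.05 (Cd74 and RT1-Da, against 2.18% of all genes higher), none passed the adjusted threshold, and the list median was 0.71. DESeq2 put 0 of the 5 at an unadjusted p under 0.05, the fit with cerebellar markers as a covariate 4, and the fit without a filter on low counts all 5, of which 3 passed the adjusted threshold. The result turned on single younger pools. Without pool 38, 4 of the 5 were DE (Cd74, RT1-Ba, RT1-Da and RT1-Db1) and the median was 1.88, whereas without pool 37 none reached an unadjusted p under 0.05 in edgeR, 1 of the 5 was negative and the median was 0.28. Without pool 39 the median was 0.43, and 1 gene reached an unadjusted p under 0.05. The summed level of the microglia markers in the 12 m pools spanned 294 to 340 CPM, while that of the class II genes spanned 39.4 to 325 CPM. Of 4 interferon response genes, Ifi27 was the 1 with an unadjusted p under 0.05, against 2.18% of all genes higher (log2 FC 0.41, SE 0.189, overlapping pools).

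Hspa1b, an inducible Hsp70 chaperone, fell. The gene model ENSRNOG00000045654 was at 8.71, 28.9 and 33.6 CPM in pools 37, 38 and 39 and at 5.1, 4.93 and 5.74 CPM in pools 34, 35 and 36. Old pools were all low and alike, while the younger pools were scattered, pool 37 lying nearest to them. Its log2 FC was -2.20 (SE 0.343, edgeR adjusted p = 0.0165). The second model with this name, ENSRNOG00000050647, was at 9.04, 34.3 and 31.6 CPM and at 7.76, 6.3 and 7.3 CPM (log2 FC -1.84, SE 0.328, adjusted p = 0.0535 by edgeR). Reads that matched both copies equally were not counted, so the level of each of these near-identical models is uncertain. The first model's call was lost without pool 35, 36, 38 or 39 (adjusted p = 0.096, 0.119, 0.132 and 0.122 by edgeR), and with all 13 groups in 1 fit (adjusted p = 0.165), whereas without pool 37 both models were DE.

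Of the 7 heat shock and chaperone gene models tested, 3 were lower at an unadjusted p under 0.05 (2.23% of all genes were) and none higher, with a median of -0.21. Hsph1, the Hsp110 nucleotide exchange factor whose promoter element is printed above, was at 392, 511 and 558 CPM at 12 m and at 306, 378 and 395 CPM at 28 m (log2 FC -0.44, SE 0.126, adjusted p = 0.809 by edgeR), so that pool 37 overlapped the old pools. As for Hspa1b (ENSRNOG00000045654), pool 37 was the lowest and pool 39 the highest of the younger pools. Hspe1, the mitochondrial co-chaperonin that also carries the element, had overlapping pools (log2 FC -0.21, SE 0.14).

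**Figure D3:**
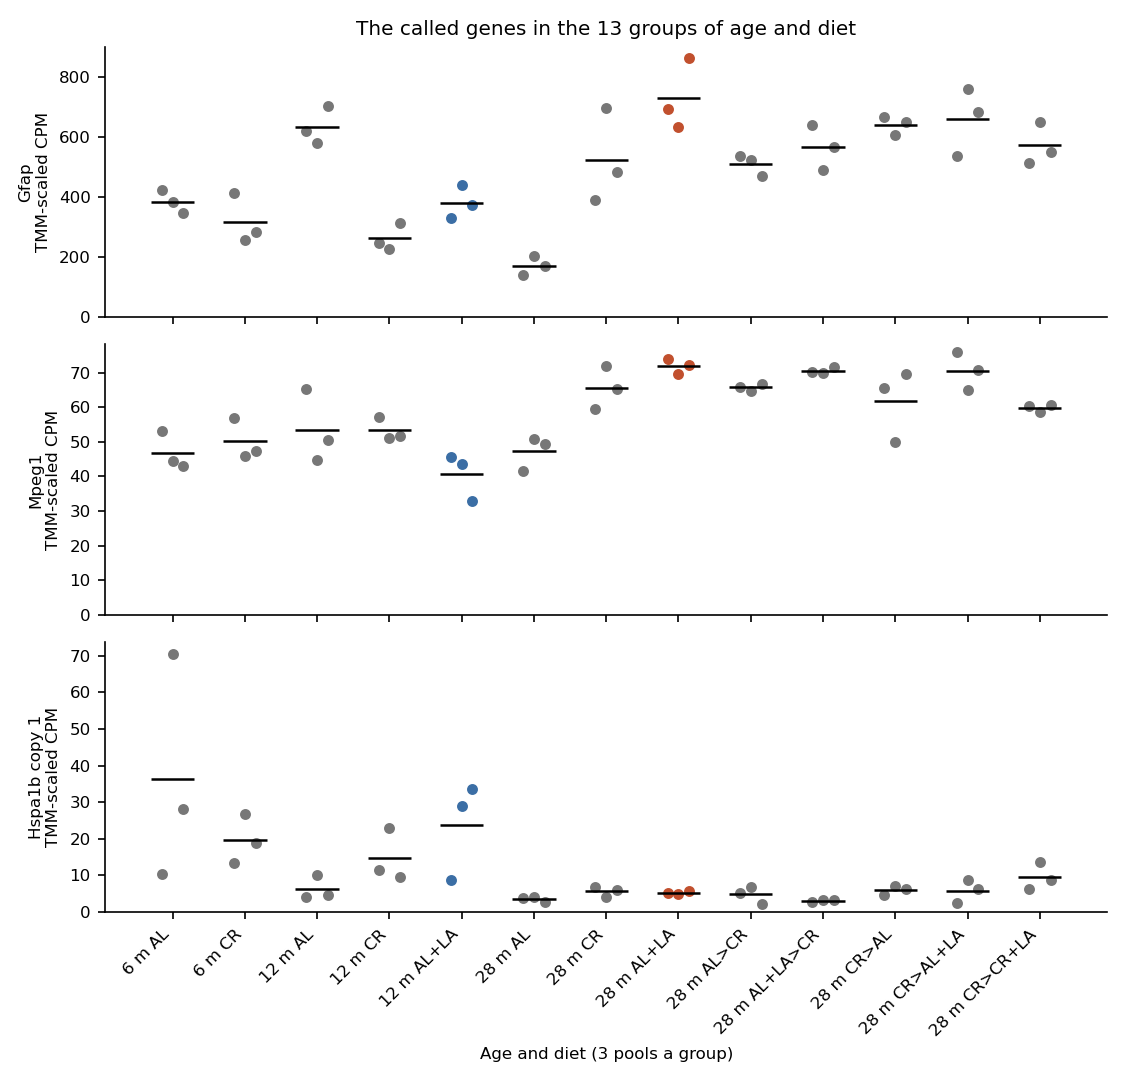
Gfap, Mpeg1 and Hspa1b copy 1 (ENSRNOG00000045654) in the 13 groups of age and diet, in TMM-scaled CPM, with points for pools and a line for the mean of 3 pools; 12 m AL + LA is blue and 28 m AL + LA red, and > marks a switch of diet at 12 months. For Gfap the 28 m AL + LA mean of 729 CPM was the highest of the 13 groups and the 28 m AL mean of 171 CPM the lowest.

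Set among the other diets, 28 m AL + LA had the highest group means of Gfap and Mpeg1, the genes called higher in these same pools. The marker lists did not rank alike. The 5 astrocyte markers summed to 1669 to 1908 CPM in 12 m AL, against 1594 to 1811 CPM in 28 m AL + LA. The microglia sum of 28 m CR (341 to 409 CPM) overlapped that of 28 m AL + LA (371 to 443 CPM). The group means of Gfap in the other 28 m groups were 508 to 658 CPM, apart from 28 m AL at 171 ± 31.3 CPM, and those at 6 and 12 months were 263 to 384 CPM, apart from 12 m AL at 633 ± 62.9 CPM (SD, n = 3 pools). Mpeg1 had its lowest group mean at 12 m AL + LA (40.7 ± 6.75 CPM) and its highest at 28 m AL + LA (71.9 ± 2.16 CPM), although 28 m CR > AL + LA and 28 m AL + LA > CR, at 70.6 and 70.5 CPM, were within the spread of pools. For Hspa1b (ENSRNOG00000045654) the mean of 23.7 ± 13.2 CPM at 12 m AL + LA was above 12 m CR (14.7 ± 7.4 CPM) and 12 m AL (6.3 ± 3.4 CPM), with overlapping pools in both cases. The 6 m AL pools were at 10.4, 70.4 and 28.1 CPM and the 6 m CR mean was 19.6 ± 6.67 CPM, so that the younger groups overlapped widely. The 28 m groups lay between 3.1 and 9.6 CPM.

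Nuclear genes of the respiratory chain were almost uniformly on the lower side at 28 months. Of 41 tested, 40 had a negative log2 FC (median -0.17, range -0.51 to 0.07), as did 8720 of all 17230 genes tested. At an unadjusted p under 0.05, 9 were lower (2.23% of all genes) and none higher, and 6 had no overlap against 4.65% of all genes. None passed the adjusted threshold, and the summed level of the list overlapped between ages (3317 to 4193 CPM at 12 m, 3059 to 3542 CPM at 28 m). Uqcrb (ENSRNOG00000024967), a subunit of complex III, was at 93.3, 102 and 99.6 CPM at 12 m and at 73.2, 87.9 and 73.3 CPM at 28 m (log2 FC -0.34, SE 0.12). Atp5i, of the ATP synthase, had a log2 FC of -0.42 (SE 0.145), and the cytochrome oxidase subunits Cox7b and Cox7c of -0.36 (SE 0.132) and -0.35 (SE 0.131), with overlapping pools in all 3. The count at an unadjusted p under 0.05 moved with single pools: 1 without pool 34, 14 without pool 35, 3 without pool 36, 12 without pool 37, 4 without pool 38 and 9 without pool 39. With all 13 groups in 1 fit it was 1. In the fits without 1 pool, 28 to 41 members were negative.

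Of the list for lipoate-dependent enzymes, their regulators and the enzymes that attach lipoate, only 3 named genes could be followed. None of the 3 attaches lipoate. Amt, the aminomethyltransferase of the lipoate-dependent glycine cleavage system, was at 14.8, 15.4 and 16.6 CPM in the younger pools and at 14, 7.94 and 9.65 CPM in the old pools (log2 FC -0.56, SE 0.235), the sole member at an unadjusted p under 0.05 (2.23% of all genes were lower). Bckdk, the kinase that regulates the branched-chain dehydrogenase and does not itself use lipoate, had a log2 FC of -0.24 (SE 0.151) with overlapping pools. Among 18 antioxidant and glutathione genes, 1 was lower at an unadjusted p under 0.05 (2.23% of all genes) and the median was -0.05. That gene was Por, the reductase that feeds electrons to cytochromes P450, at 34.2, 38.4 and 38.2 CPM and then 27.3, 26.8 and 28.7 CPM (log2 FC -0.43, SE 0.15). Sod1, the cytosolic superoxide dismutase, had a log2 FC of -0.22 (SE 0.116).

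Of 15 synaptic vesicle and secretory genes, 3 were lower at an unadjusted p under 0.05 (2.23% of all genes) and none passed the adjusted threshold, with a median of -0.03. Rab3b, a small GTPase of vesicles, was at 32.9, 38.4 and 37 CPM at 12 m and at 26.4, 23.3 and 27.9 CPM at 28 m (log2 FC -0.49, SE 0.156), and Stx1a, the SNARE protein syntaxin 1A, had a log2 FC of -0.33 (SE 0.14), both without overlap. Of 9 inhibitory neuron markers 8 were negative with a median of -0.18, but none reached an unadjusted p under 0.05 in either direction, as for Calb1 (log2 FC -0.22, SE 0.123), Sst (log2 FC -0.18, SE 0.122) and Gad1 (log2 FC -0.14, SE 0.119). None of 4 excitatory markers, 7 glutamate receptors, 9 postsynaptic genes, 14 chromatin modifiers or 7 cholesterol synthesis genes reached it either. Gap43, a growth-cone protein, had a log2 FC of -0.26 (SE 0.118) and overlapping pools.

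Immediate early genes, which report recent neuronal activity, numbered 11, of which 3 were lower at an unadjusted p under 0.05, against 2.23% of all genes (median -0.20). Sik1, a salt-inducible kinase, was at 17.8, 17.4 and 15.2 CPM in the younger pools and at 13.3, 9.31 and 9.91 CPM in the old ones (log2 FC -0.62, SE 0.219). Nr4a2 and Arc had log2 FC of -0.53 (SE 0.209) and -0.33 (SE 0.147), with overlapping pools. The count was 6 without pool 34, 4 without pool 39, 1 without pool 36 and 2 without each of the others. Rora, a nuclear receptor of the clock loop, was the 1 gene of 8 circadian genes at an unadjusted p under 0.05, against 2.18% of all genes higher (log2 FC 0.39, SE 0.181).

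The remaining genes named by rank had pools that did not overlap but no adjusted p under 0.05. Bcas1, which marks early myelinating oligodendrocytes, was at 153, 173 and 152 CPM at 12 m and at 229, 245 and 229 CPM at 28 m (log2 FC 0.55, SE 0.106, adjusted p = 0.127 by edgeR). It was DE in 3 of 9 alternative settings, namely DESeq2, the exact test and no filter. With all 13 groups in 1 fit its adjusted p was 0.784 by edgeR. Of the 6 fits that left out 1 pool, it was DE in 0 (adjusted p = 0.0624 to 0.464 by edgeR). Enpp6, another gene of newly formed oligodendrocytes, had a log2 FC of 0.52 (SE 0.23), while none of 3 myelin markers reached an unadjusted p under 0.05. Pbx3, a homeodomain factor, was at 32.3, 38.4 and 41.6 CPM against 59.0, 60.8 and 61.0 CPM (log2 FC 0.68, SE 0.136, adjusted p = 0.159 by edgeR). On the lower side were DDIT3 (CHOP, a factor of the unfolded protein response; log2 FC -0.72, SE 0.194), Tmsb10 (an actin-binding thymosin; log2 FC -0.51, SE 0.14) and Tmem100 (log2 FC -0.53, SE 0.153), each with an adjusted p of 0.809 by edgeR.

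The cortical label was checked with 4 markers of excitatory cortical neurons (Etv1, Fezf2, Neurod6 and Tshz2), which were present in both ages with summed levels of 253 to 329 CPM at 12 m and 296 to 302 CPM at 28 m. Markers of other regions and of blood were present too. The 3 markers listed for blood (Alb, Hba-a2 and Hba2) summed to 358 to 607 CPM and 294 to 513 CPM. The albumin gene Alb varied most, from 12.3 to 275 CPM at 12 m and from 10.4 to 130 CPM at 28 m. Hba-a2 was at 229 to 244 and 190 to 261 CPM, and Hba2 at 102 to 119 and 92.9 to 123 CPM. The range of the sum is thus not a measure of blood content. The 2 striatal markers summed to 116 to 182 CPM and 90.0 to 156 CPM. None of these blood and striatal markers had an unadjusted p under 0.05. The summed level of 8 cerebellar markers was 111 to 117 CPM at 12 m and 107 to 122 CPM at 28 m, and 1 of them, Cbln1, was higher at an unadjusted p under 0.05 (2.18% of all genes), with Cbln1 at 2.9 to 6.05 and 6.3 to 10.6 CPM and Zic2 at 7.02 to 10.0 and 5.76 to 6.57 CPM. The 3 hippocampal, thalamic and hypothalamic markers summed to 48.2 to 58.1 CPM at 12 m and 47.7 to 85.2 CPM at 28 m, and 2 of the 3 were higher at an unadjusted p under 0.05 (2.18% of all genes). Within them, Tcf7l2 was at 6.65, 19.4 and 15.4 CPM in pools 34, 35 and 36 against 7.02 to 9.76 CPM at 12 m, and Prkcd had a log2 FC of 0.44 (SE 0.189). With the cerebellar markers as a covariate the same 3 genes were DE. The sum of those markers spanned only 107 to 122 CPM over these pools, so that fit could hardly test for cerebellar tissue. The part of the thalamic markers in these results was not tested.

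To ask whether ageing on the AL + LA diet differed from ageing in AL, an age by diet interaction was fitted over 12 libraries. It was significant for 32 of 17230 genes (0.186%, where AL alone gave 89, or 0.517%, between its own ages), in 28 with a more positive change in AL + LA and in 4 with a more negative one. Gfap led with a difference in log2 FC of 2.81 (SE 0.223, edgeR adjusted p = 8.61e-08): its log2 FC was 0.93 (SE 0.124) in AL + LA and -1.88 (SE 0.184) in AL. Immune genes among the 32 were Cd74 (difference 2.80, SE 0.532), RT1-Da (3.18, SE 0.566), RT1-Ba (2.80, SE 0.591), RT1-A1 (1.49, SE 0.243), Itgam (2.49, SE 0.475) and Serping1 (2.58, SE 0.518). Most of these calls depended on single pools. Of the 12 fits that left out 1 pool, Gfap and RT1-A1 passed in 12 and RT1-Da in 10. Cd74 passed in 7, Serping1 in 6, Itgam in 5 and RT1-Ba in 4. All 5 class II genes, and 5 of the 8 microglia markers, had a positive difference at an unadjusted p under 0.05 (4.9% of all genes) and none a negative one (4.91%). For Mpeg1 the difference was 1.04 (SE 0.239, adjusted p = 0.0659 by edgeR) and for the first model of Hspa1b -1.72 (SE 0.619, adjusted p = 0.335).

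Each gene of the 32 named so far had a log2 FC further from 0 in AL than in AL + LA, with the opposite sign. Examples are Gfap (-1.88 in AL, 0.93 in AL + LA), Cd74 (-1.90 and 0.88) and RT1-A1 (-0.80 and 0.69). The log2 FC was further from 0 in AL for the following genes of the 32 as well. Hba2, an α-globin gene, was at 119, 102 and 103 CPM at 12 m AL + LA and 92.9, 123 and 106 CPM at 28 m AL + LA (log2 FC -0.01, SE 0.123), against a log2 FC of -1.96 (SE 0.244) in AL, a difference of 1.96 (SE 0.285). Nop10, a nucleolar protein of pseudouridylation complexes, had a log2 FC of 0.01 (SE 0.162) in AL + LA and -1.88 (SE 0.288) in AL. Rpl22l1, a ribosomal protein paralog, had log2 FC of -0.29 (SE 0.149) and 1.08 (SE 0.208), Htra1, a secreted protease, of -0.10 (SE 0.137) and 0.94 (SE 0.18), and Sar1b, a GTPase of secretory transport, of -0.17 (SE 0.138) and 0.92 (SE 0.205).

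The AL libraries stand apart, and that bears on every value of this interaction. The summed level of the cerebellar markers was 137 to 2168 CPM in 12 m AL and 132 to 1488 CPM in 28 m AL, against 107 to 122 CPM in the 6 AL + LA pools, and 12 m AL pool 5 held only 494091 reads on genes. In these AL libraries 27.5% to 36.1% of reads were not aligned, against 38.5% to 41.3% in AL + LA. The hippocampal, thalamic and hypothalamic markers summed to 118 to 207 CPM in 12 m AL and 98.4 to 189 CPM in 28 m AL. In AL + LA those sums were 48.2 to 58.1 CPM at 12 m and 47.7 to 85.2 CPM at 28 m. The direction in AL also went against those in AL + LA and CR: Cd74 had a log2 FC of -1.90 (SE 0.249) in AL, and the median of the class II genes was -2.02 in AL, 0.71 in AL + LA and 1.88 in CR. The ages of the AL libraries were taken as labelled, and every direction given for AL, and for the interaction with it, rests on those labels. Without pool 5 and 28 m AL pools 7 and 9, which leaves 1 pool at 28 m AL and keeps 12 m AL pool 6 with the highest cerebellar sum, the interaction was significant for 3 genes, and without the 4 AL pools above 500 CPM (5, 6, 7 and 9), a choice made after seeing the data that leaves 1 pool at each AL age and assumes it varies like the rest, for 4 genes. Gfap was among them in both cases, with differences of 2.64 and 2.55. Over the alternatives other than those leaving out a single pool, the difference was 1.88 to 2.19 for Nop10, 1.47 to 2.02 for Hba2, 2.00 to 2.90 for Cd74 and 2.15 to 3.41 for RT1-Da. Leaving out AL pools one at a time gave 9 genes (pool 7), 12 (pool 9), 20 (pool 5), 36 (pool 6), 37 (pool 4) and 106 (pool 8). Among AL + LA pools they were 13 without pool 37, 14 without 38, 15 without 35, 17 without 36 or 39 and 38 without 34.

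**Figure D4:**
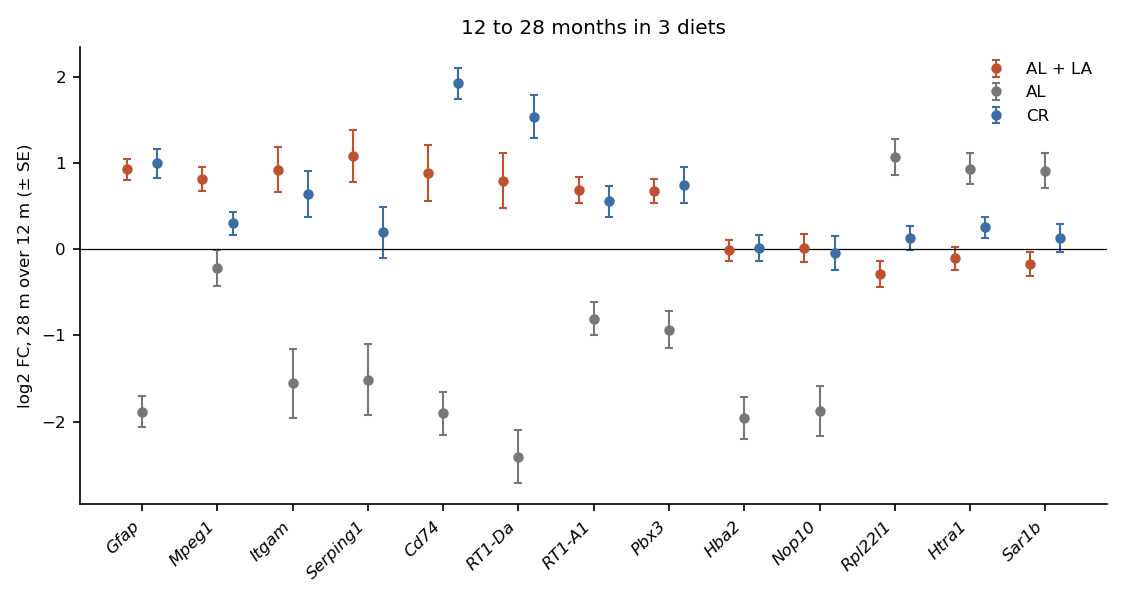
Log2 FC, 28 over 12 months, within AL + LA (red), AL (grey) and CR (blue) for 13 genes, each from its own edgeR fit of 6 libraries; whiskers are the SE. For Gfap the AL + LA and CR values (0.93 and 1.0) lie together and the AL value (-1.88) apart, and for Hba2 and Nop10 the AL + LA and CR values lie at 0.

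In CR, 47 genes (0.273%) were DE between its own ages. The interaction with CR was significant for 15 genes (0.0871%), every one with a more negative change in AL + LA. The only one with a name was Rn28s, a ribosomal RNA left after depletion (difference -3.39, SE 0.41, edgeR adjusted p = 4.8e-05), and across the 39 libraries all 15 (Rn28s included) had a correlation with Rn28s of at least 0.8 in size, as 27 of all 17230 genes had. Rn28s was at 3016 to 4320 CPM in 12 m CR and 30452 to 34002 CPM in 28 m CR, and in AL + LA at 28903, 21620 and 35650 CPM in pools 37, 38 and 39 and 8533, 32027 and 34794 CPM in pools 34, 35 and 36. The hippocampal, thalamic and hypothalamic markers summed to 33.2 to 183 CPM in 12 m CR and 33.9 to 185 CPM in 28 m CR, and their part in this interaction was not tested. With all 13 groups in 1 edgeR fit the interaction was significant for 0 genes (660 at an unadjusted p under 0.05), and with DESeq2 for 8.

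None of the glial or immune genes passed that test in the fit reported here, although without a filter on low counts 75 genes did, Cd74, RT1-Ba, RT1-Bb, RT1-Db1 and C2 among them. The log2 FC of Gfap was 0.93 (SE 0.124) in AL + LA and 1.0 (SE 0.166) in CR, a difference of -0.07 (SE 0.234). Cd74 had log2 FC of 0.88 (SE 0.327) and 1.93 (SE 0.183), with a difference of -1.03 (SE 0.484), and Mpeg1 had 0.81 (SE 0.137) and 0.30 (SE 0.135), with a difference of 0.51 (SE 0.189). The models of Hspa1b had log2 FC of -1.38 (SE 0.324) and -1.69 (SE 0.288, edgeR adjusted p = 0.00597) in CR, against -2.20 (SE 0.343) and -1.84 (SE 0.328) in AL + LA, with differences of -0.81 (SE 0.552) and -0.14 (SE 0.517). Of the 41 respiratory chain genes, 8 had a more negative change in AL + LA than in CR at an unadjusted p under 0.05 (2.8% of all genes) and none a more positive one (1.84%), with list medians of -0.17 in AL + LA and 0.14 in CR, and none passed the adjusted threshold.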

How the data were processed

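RNA-seq of rat cerebral cortex was used from 12 m and 28 m AL + LA, with 12 m and 28 m AL and CR for the interactions. All 13 groups were used for the levels of the called genes. Per the labels and the methods, RNA with a RIN above 8 was pooled from 2 rats, depleted of ribosomal RNA (Ribominus), sequenced on a SOLiD 5500xl, aligned to Rnor_5.0 (rn5) by Bowtie in colour space, dropping reads that mapped more than once, and counted with HTSeq. Versions of these tools are not given in the sources used here. The values the authors deposited are raw read counts for 26123 Ensembl genes, and 5 lines that name no gene (38.5% to 41.3% of the reads of these 6 libraries were not aligned) were left out.

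Genes with 1 CPM or more in 3 or more of all 39 libraries were tested (17230), and libraries were scaled by TMM. Groups were compared with edgeR 4.0.16 in R 4.3.3 (glmQLFit and glmQLFTest, only the libraries of the groups compared, Benjamini-Hochberg adjustment over all genes tested, threshold 0.05). CPM values are TMM-scaled over all 39 libraries, and an SE is the log2 FC divided by the square root of F. The scripts were tested on simulated data. Apart from the pool numbers, the labels do not say how separate the samples of a group are, and p-values measure the spread between these pools only.

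Gene names come from the authors' supplementary tables, which pair 1671 identifiers with a name because the study listed those genes as changed in some comparison of these samples. The lists therefore hold only part of each pathway (none of the 13 mitochondrially encoded genes had a name) and are not independent of the data. Names and promoters of RefSeq carry no Ensembl identifier and were matched by symbol. Genes were named by rank of p among those without overlap between pools (5 per direction), as at most 4 members of each list, because the study names them, or as at most 3 per direction of each interaction, and 1 gene so named is not reported here. The genes compared and the lists were chosen with earlier results of these data known. Alternatives were DESeq2 1.42.0, its size factors, edgeR's exact test, other filters on low counts, all 13 groups in 1 fit, Rn28s or cerebellar markers as a covariate, and each pool left out in turn.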

Additional observations from a re-analysis of the deposited data

Results flagged for a closer look

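The change between the labelled ages differed between diets by a test of the interaction itself. In that test, diet cannot be told apart from other differences between the libraries of the diets. Between AL + LA and AL the test was passed by 32 genes. The differences in log2 FC (AL + LA minus AL) of those named here were 2.81 for Gfap, 1.96 for Hba2, 1.88 for Nop10, 1.59 for Pbx3, 1.49 for RT1-A1, 2.80 for Cd74, 2.80 for RT1-Ba, 3.18 for RT1-Da, 2.58 for Serping1, 2.49 for Itgam, -1.37 for Rpl22l1, -1.04 for Htra1 and -1.09 for Sar1b. Without 12 m AL pool 5 and 28 m AL pools 7 and 9, which leaves 1 pool at 28 m AL, Gfap alone of these genes stayed past the threshold, while the others kept their direction. Between AL + LA and CR the test held for 15 genes, of which Rn28s (difference in log2 FC -3.39) was the one with a name.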

How the results depend on the processing

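The number of DE genes between 12 and 28 m AL + LA, 3, was 3 with DESeq2's size factors, with either other filter and with cerebellar markers as a covariate, 4 with DESeq2, 2 with all 13 groups in 1 fit and 2 with Rn28s as a covariate. It was 44 without a filter on low counts (18 higher and 26 lower), 9 with edgeR's exact test and between 1 and 8 with 1 pool left out. Gfap was DE in every one of these fits. The interaction with AL (32 genes) gave 185 without a filter, 57 with DESeq2, 74 with all 13 groups in 1 fit, 3 without AL pools 5, 7 and 9, 4 without the AL pools above 500 CPM of cerebellar markers (added after seeing the data) and 9 to 106 with 1 pool left out. That with CR (15 genes) gave 9 with DESeq2's size factors, 9 with at least 10 counts in every library, 9 with the filter on the fitted libraries only, 75 without a filter, 8 with DESeq2, 0 with all 13 groups in 1 edgeR fit (660 at an unadjusted p under 0.05) and 7 to 28 with 1 pool left out. Values near 0 turned sign: with Rn28s as a covariate, Nop10 was at -0.017 and Hba2 at 0.037, and with 1 pool left out the log2 FC ran from -0.056 to 0.153 for Nop10, -0.123 to 0.086 for Hba2, -0.226 to 0.032 for Htra1, -0.048 to 1.81 for RT1-Bb and -0.502 to 0.219 for Rn28s. The cause of these shifts was not tested. With 1 pool left out, 2 pools remain at that age. With 3 pools a group and 3257510 reads on genes in the shallowest AL + LA library, genes of few counts were measured with the least precision. No paired analysis was possible because the groups share no pool number.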
